A study of Mus musculus with 24 samples.

Results

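The clustered histone genes were taken as the protein-coding genes of GENCODE vM21 on chromosomes 1 to 19 whose symbol begins with Hist1h, Hist2h, Hist3h or Hist4h. The rule found 67 of 20807 coding genes and used no measured value. They comprised 6 H1, 18 H2A, 18 H2B, 12 H3 and 13 H4 genes. The samples used here profiled 3 of the study's ASD-associated transcriptional regulators (TRs) by ChIP-seq in the cortex of wild-type (WT) mouse embryos, at the stages E15.5 and E18.5. ARID1B is a DNA-binding subunit of the BAF chromatin remodeller, FOXP1 is a forkhead factor, and TCF7L2 is an HMG-box factor of the WNT pathway that the sample labels call TCF4. Each TR and stage had 2 ChIP libraries and 2 matched input libraries, and 1 peak list was used for each. The methods describe these lists as called on merged replicates, while the labels attach each to its first replicate, so the merge rests on the methods. The cortex was used whole, so cell types of the tissue are mixed, and the tissue label cannot be checked against marker expression in peak lists. With 1 list per condition, no difference between lists can be set against the spread between replicates, and every comparison is a description.

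Core histones H2A, H2B, H3 and H4 form the protein spool of the nucleosome, and linker histone H1 binds the DNA where it enters and leaves. The clustered, replication-dependent genes are transcribed in S phase, when a dividing cell must package newly copied DNA. NPAT, at the histone locus body, drives their transcription, and their messages end in a conserved stem-loop bound by SLBP in place of a poly(A) tail. Histone variant genes lie elsewhere in the genome, and many of them, such as those for H3.3, are transcribed outside S phase as well and make polyadenylated messages.

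A single exon was annotated for 62 of the 67 genes, or 92.5%, against 5.30% of the other coding genes. The median gene length was 539 bp, against 17725 bp in the other genes. The genes lay in 5 places on GRCm38. Chromosome 13 held 23 genes at 21715763 to 22043676 and 31 at 23531050 to 23934851. Chromosome 3 held 10 at 96219865 to 96270132, chromosome 11 held Hist3h2ba and Hist3h2a, and chromosome 6 held Hist4h4. Divergent neighbours with starts less than 1000 bp apart formed 13 pairs, 12 of them an H2A with an H2B gene, with a median of 268 bp between starts (range 176 to 660).

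The 3′ stem-loop was searched within 300 bp after the stop codon as the stem GGNTCT, 4 loop bases and the stem AGANCC. It followed 52 of 67 genes, against 11 of 20586 other genes with an annotated stop codon, at 22 to 59 bases after the stop. None of the 13 H4 genes held it. With the stem GGCNCT and AGNGCC allowed as well, a form chosen after the H4 genes were seen to lack the first, 63 of 67 genes held a match, including 11 of 13 H4 genes, against 26 other genes. The commonest forms are shown because they define the group in its own sequence, with the stems in capitals and the loop in lower case.
Stem-loop of 41 genes of the H1, H2A, H2B and H3 classes: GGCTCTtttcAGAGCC
Stem-loop of 9 further genes of those classes: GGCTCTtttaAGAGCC
Stem-loop of 8 H4 genes: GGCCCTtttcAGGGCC

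FOXP1 and TCF7L2 peaks lay at most histone promoters at the authors' threshold, and ARID1B peaks at fewer. A promoter was taken as the 2000 bp upstream of any annotated transcription start site (TSS), and 1 base of overlap was enough. At E15.5, FOXP1 had a peak at 58 of 67 promoters, or 86.6% (95% Wilson interval 76.4 to 92.8), against 63.3% of the 20740 other coding genes. TCF7L2 had a peak at 58 of 67 as well, against 59.0% of the other genes. ARID1B had a peak at 45 of 67, or 67.2% (55.3 to 77.2), against 60.9% of the other genes, which lies inside the interval. At E18.5 the counts were 55 for FOXP1 (82.1%, interval 71.3 to 89.4, against 56.6%), 58 for TCF7L2 (against 62.9%) and 38 for ARID1B (56.7%, interval 44.8 to 67.9, against 59.5%). With −log10 p of at least 15 required, FOXP1 at E18.5 was left at 43.3% of histone promoters against 43.7% of the other genes, and ARID1B at E15.5 at 26.9% against 45.3%, while FOXP1 at E15.5 and TCF7L2 at both stages stayed above the other genes. The intervals cover counting error only, and since neighbouring histone genes share peaks the genes are not independent.

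Short genes elsewhere in the genome were seldom bound. Of the 579 other coding genes of at most 1000 bp, between 8.98% and 11.6% had a promoter peak, depending on the list. Of the histone genes, 48 were of that length. 

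**Figure D1:**
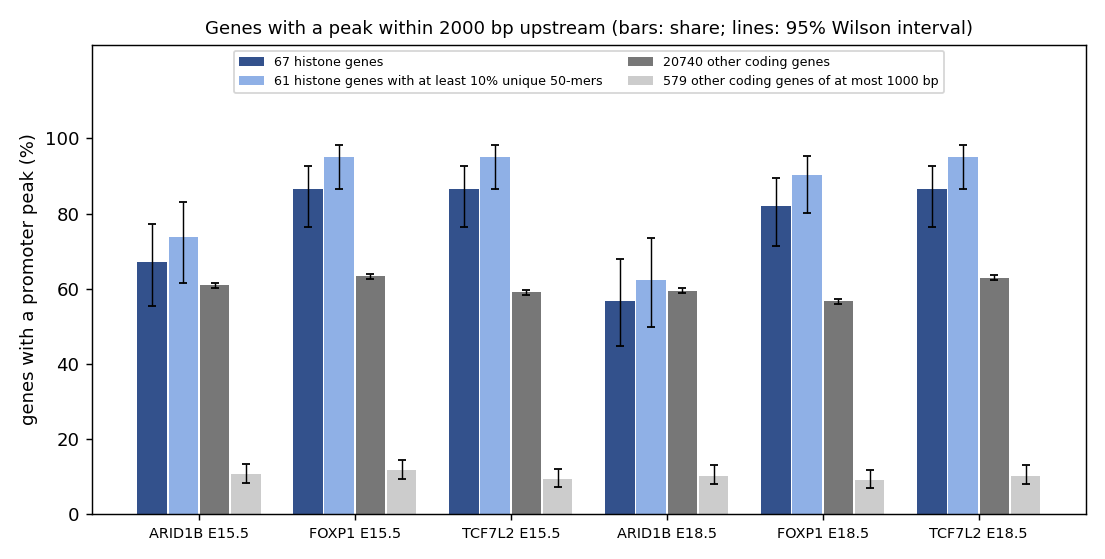
Share of genes (%, vertical axis) with a peak within 2000 bp upstream of a TSS in each of the 6 peak lists (horizontal axis), for all 67 histone genes, the 61 of them with at least 10% unique 50-base windows in the promoter, the 20740 other coding genes and the 579 of these of at most 1000 bp. Lines are 95% Wilson intervals, and the histone genes stand above the other genes for FOXP1 and TCF7L2 at both stages and close to them for ARID1B.

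Peaks of all 3 TRs met at 45 histone promoters at E15.5, or 67.2%, against 57.4% of the other genes. At E18.5 they met at 37, or 55.2%, against 54.9%. A fold of at least 4 put both shares below those of the other genes, at 32.8% against 47.8% and 43.3% against 49.4%, and −log10 p of at least 15 did as well, at 25.4% against 41.3% and 16.4% against 36.9%. The E18.5 share was also below with promoters of 1000 bp (50.7% against 54.3%) and with 500 bp on either side of the TSS (49.3% against 55.6%). With a peak counted for the nearest TSS only, both shares were below (43.3% against 49.6% at E15.5, 41.8% against 47.2% at E18.5). Of the 67 genes, 32 (47.8%) carried a promoter peak in all 6 lists, against 53.9% of the other genes. A further 18 carried a peak in 5 lists, 6 in 4 lists and 2 in 3 lists. No histone gene carried a peak in 1 or 2 lists (other genes 3.97%), and 9 (13.4%) carried none, against 34.3% of the other genes. By class, all 6 lists were reached by 10 of 13 H4, 4 of 6 H1, 6 of 12 H3, 7 of 18 H2B and 5 of 18 H2A genes. For Hist1h1d, Hist2h3c1, Hist1h3c, Hist2h2be and Hist1h2bj, the summit of the highest peak lay nearer to another histone gene in all 6 lists. For Hist1h1d and Hist2h3c1 no promoter peak had a nearer summit, so these class counts rest in part on peaks of neighbours.

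**Figure D2:**
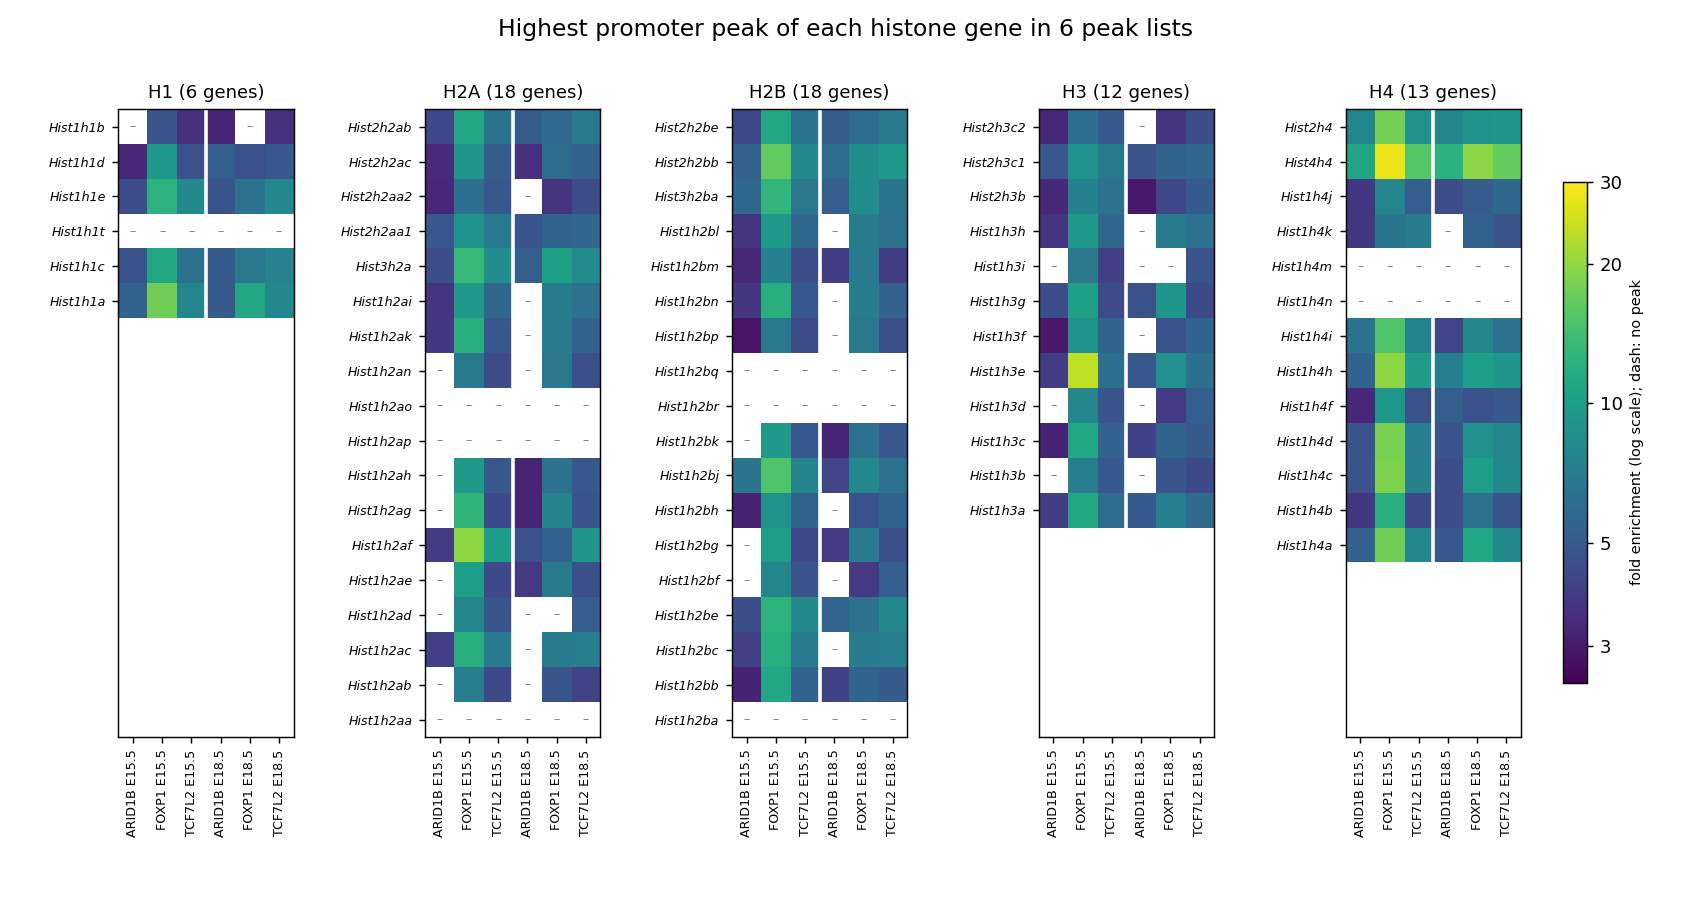
Fold enrichment of the highest promoter peak (colour, log scale) for each of the 67 histone genes (rows, by class and then by position) in the 6 lists (columns, E15.5 left and E18.5 right of the white line). Dashes mark genes with no peak, Hist4h4 is the brightest row, and FOXP1 at E15.5 is the brightest column.

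Peaks were shared between neighbours. The 58 promoters with a FOXP1 peak at E15.5 were reached by 60 distinct peaks, 26 of which lay at 2 or more histone genes. In the 6 lists, 40.5% to 54.5% of distinct promoter peaks served at least 2 histone genes, and none served more than 3. The summit of the highest peak lay 300 bp or more upstream of the TSS for 24.1% to 42.2% of bound histone genes, against 7.68% to 14.1% of bound other genes. For example, the 17.5-fold FOXP1 peak counted for Hist1h1a, an H1 gene, had its summit more than 2000 bp upstream of the TSS, and the same peak was the highest of its neighbour Hist1h4a.

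In gene bodies, the comparison with other genes depended on how a peak was counted. With 1 base of overlap, ARID1B peaks were less frequent than in other genes, and FOXP1 and TCF7L2 peaks more frequent. ARID1B had a body peak at 34 histone genes at E15.5, or 50.7% (interval 39.1 to 62.3), against 66.3% of the other genes, and at 31, or 46.3% (34.9 to 58.1), against 65.3%, at E18.5. FOXP1 had one at 54 (80.6%, against 68.6%) and 47 (70.1%, 58.3 to 79.8, against 60.6%), the latter with the other genes inside the interval. TCF7L2 had one at 54 (80.6%, against 62.8%) and 53 (79.1%, against 67.2%). Other genes of at most 1000 bp held a body peak in 9.50% to 11.2% of cases by the same rule. With 100 bases of overlap, TCF7L2 was below the other genes at either stage (46.3% against 62.3%, then 59.7% against 66.8%), as was FOXP1 at E18.5 (32.8% against 60.0%). With the summit inside the body, every list was below the other genes. The shares for ARID1B, FOXP1 and TCF7L2 were 22.4%, 29.9% and 34.3% at E15.5 (other genes 55.7%, 56.6% and 49.8%) and 20.9%, 16.4% and 28.4% at E18.5 (54.9%, 44.5% and 56.4%). The other genes are longer, with a median of 17725 bp against 539 bp. Short other genes were not counted under the overlap of 100 bases or the summit rule, and the part of length was not tested. Of the 14 histone genes with at least 90% unique windows in the body, 85.7% (E15.5) and 78.6% (E18.5) held an ARID1B body peak. These shares lie above the 66.3% and 65.3% of all other genes, but other genes of like uniqueness were not counted over all lengths. Of the 14, 5 were of at most 1000 bp. An ARID1B body peak lay at 3 of these 5 at either stage, against 22.8% (E15.5) and 22.4% (E18.5) of the 250 other genes of that length and uniqueness, and 5 genes are too few to set a share.

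H4 genes carried the highest peaks. Fold enrichment is the height of the ChIP signal at the summit over a constant genome-wide background, as the authors' peak caller gives it. In the FOXP1 list at E15.5, the median of the highest promoter peak was 17.5 in the 11 bound H4 genes, against 8.99 to 11.1 in the other classes, with H1 the highest of these (5 genes) and H3 the lowest (12 genes). The classes overlapped, with H4 genes from 6.58 (Hist1h4k) to 28.0 (Hist4h4). H4 also had the highest class median in the other lists except ARID1B at E18.5, where 5 H1 genes reached 5.05 and 10 H4 genes 4.84. Among these H1 values, the 5.33 of Hist1h1d is the peak of its H4 neighbour Hist1h4f, with its summit at -1617 bp from the TSS. In the FOXP1 list at E15.5 all 11 bound H4 genes had their summit within 300 bp of the TSS, whereas 4 of 12 bound H3 genes did. The share was 87.9% of bound other genes and 74.1% of all bound histone genes.

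**Figure D3:**
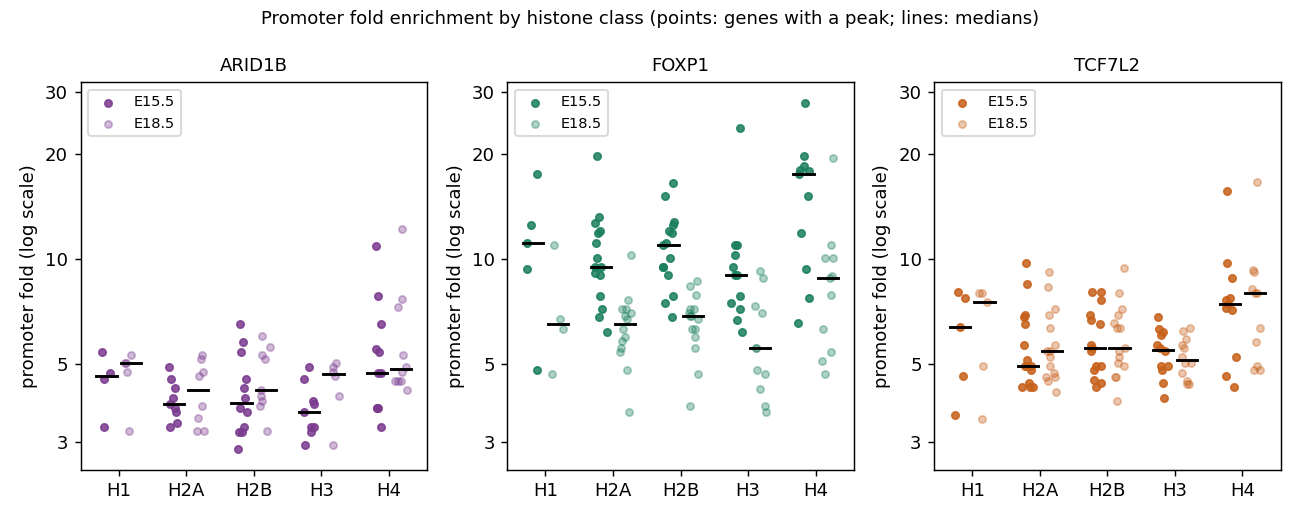
Fold enrichment of the highest promoter peak (vertical axis, log scale) by histone class (horizontal axis) for ARID1B, FOXP1 and TCF7L2, with E15.5 in dark and E18.5 in pale points. Each point is 1 gene with a peak and lines are medians. H4 genes reach 28.0 for FOXP1 at E15.5, and the classes overlap in every panel.

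Hist4h4, a lone H4 gene on chromosome 6, had the highest promoter peak of all histone genes in each of the 6 lists. The ARID1B folds were 10.9 (E15.5) and 12.2 (E18.5), the FOXP1 folds 28.0 and 19.4, and the TCF7L2 folds 15.6 and 16.6. All 6 summits lay within 45 bp of the annotated TSS. Other genes with high peaks were Hist2h4 (7.84 and 7.71 for ARID1B at E15.5 and E18.5), Hist1h4h (9.74 for TCF7L2 at E15.5) and Hist2h2bb, an H2B gene (9.41 for TCF7L2 at E18.5). Hist1h3e, an H3 gene, had the second highest FOXP1 peak at E15.5, at 23.7, beside 3.84 for ARID1B and 6.19 for TCF7L2 at that stage. The second highest FOXP1 peak at E18.5, at 11.0, was shared by Hist1h4a and Hist1h1a.

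The highest mean fold over the 6 lists within a class belonged to Hist1h1a (9.12), Hist1h2af (8.76), Hist2h2bb (9.01), Hist1h3e (8.94) and Hist4h4 (17.1). For Hist1h1a and Hist1h2af these were largely the peaks of H4 neighbours. The highest peak counted for Hist1h1a was that of Hist1h4a in 5 of the 6 lists, and for Hist1h2af it was that of Hist1h4h in 3, among them its FOXP1 value of 19.7 at E15.5 and its TCF7L2 values of 9.74 and 9.20. With the peak whose summit lay nearest to the TSS, the means fell to 6.55 for Hist1h1a and 4.21 for Hist1h2af. The highest H1 mean was then that of Hist1h1e (7.37) and the highest H2A mean that of Hist3h2a (8.35), while Hist2h2bb, Hist1h3e and Hist4h4 kept their values and their place. Hist3h2a and Hist3h2ba on chromosome 11 had peaks in all 6 lists, between 4.55 and 13.2 for Hist3h2a and between 5.33 and 12.8 for Hist3h2ba. The lowest folds were 2.86 (Hist1h2bp) and 2.95 (Hist1h3f) for ARID1B at E15.5, and 2.95 (Hist2h3b) for ARID1B at E18.5. Hist1h1b, an H1 gene, had the lowest FOXP1 peak at E15.5 (4.81, next to 6.20 for Hist2h2aa2 and Hist2h3c2) and the lowest TCF7L2 peak at both stages (3.58 and 3.50), with Hist1h3i next for TCF7L2 at E15.5 (4.00) and Hist1h2bm at E18.5 (3.94). Hist2h2aa2 and Hist2h3c2 shared the lowest FOXP1 peak at E18.5 (3.65).

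Promoter sequences of the high genes and of a divergent pair are shown 5′ to 3′ on the strand of the named gene, from the RefSeq promoter table of GRCm38.p6, cut so that they hold no base of an annotated coding gene. Capitals mark matches, on either strand, to the TATA box letters TATAAA, the CAAT box letters CCAAT, the octamer ATTTGCAT, the forkhead letters TGTTTAC or the TCF letters ATCAAAG. Hist4h4 is the gene with the highest peaks and has no match in the 200 bases shown, though its RefSeq promoter has 1 forkhead match that these bases do not hold. Hist1h3e has 4 CCAAT, and the 239 bases shown from between Hist1h2ac and Hist1h2bc hold 3 CCAAT, an octamer and a TATAAA.
Hist4h4, chr6:136804432-136804631, minus strand: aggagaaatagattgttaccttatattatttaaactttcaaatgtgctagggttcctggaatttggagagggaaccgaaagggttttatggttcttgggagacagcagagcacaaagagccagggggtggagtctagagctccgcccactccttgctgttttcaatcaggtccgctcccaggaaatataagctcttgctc
Hist1h3e, chr13:23562386-23562585, minus strand: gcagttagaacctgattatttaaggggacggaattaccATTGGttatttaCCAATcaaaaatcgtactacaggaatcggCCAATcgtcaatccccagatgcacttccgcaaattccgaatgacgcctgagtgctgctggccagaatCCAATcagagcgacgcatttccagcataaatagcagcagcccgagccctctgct
Hist1h2ac, chr13:23683960-23684198, minus strand: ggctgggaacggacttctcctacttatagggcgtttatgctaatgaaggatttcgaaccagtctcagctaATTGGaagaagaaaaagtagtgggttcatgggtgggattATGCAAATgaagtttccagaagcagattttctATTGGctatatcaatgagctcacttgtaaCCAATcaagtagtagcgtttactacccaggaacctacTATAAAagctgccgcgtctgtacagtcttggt

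The RefSeq table, which gives 250 bases before to 50 after a start, matched 61 of the 67 genes. The entries not found were Hist2h2be, Hist2h4, Hist1h2ap, Hist1h3f, Hist1h2bc and Hist1h3a. The 26964 other promoters are the first entries of all other genes of the table. They were not filtered for coding genes or for chromosomes, unlike the 20740 other coding genes used above. CCAAT, the site of the factor NF-Y, was in 52 of 61 promoters (85.2%), in all 49 promoters of the H1, H2A, H2B and H3 classes and in 3 of 12 H4 promoters, against 37.8% of the 26964 other promoters of the table. At least 2 copies were in 43 of the 61 (70.5%), against 3243 of the 26964 others. The octamer, bound by POU factors such as OCT1, was in 7 of 17 H2A and 6 of 16 H2B promoters and in no H1, H3 or H4 promoter, against 1.71% of the others, and divergent partners share these bases. TATAAA was in 35 (57.4%), against 14.1%. The forkhead letters were in 1 of 61, Hist4h4 (1.64%, others 3.55%) and the TCF letters in 4 (6.56%, others 3.72%). The ratio of observed to expected CpG had a median of 0.746 in the histone promoters and 0.386 in the others.

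Genes with promoter peaks of FOXP1 and TCF7L2 but not of ARID1B made up 13 of the 67 at E15.5, or 19.4% (interval 11.7 to 30.4), against 1.15% of the other genes. At E18.5 they made up 18, or 26.9% (17.7 to 38.5), against 1.22%. The reverse, an ARID1B peak without both other TRs, was found at no histone gene at E15.5 (3.46% of the other genes) and at 1 gene, Hist1h1b, at E18.5 (4.56%). At E15.5 the 13 genes were Hist1h1b, Hist1h3i, Hist1h2an, Hist1h2ah, Hist1h2bk, Hist1h2ag, Hist1h2ae, Hist1h2bg, Hist1h2bf, Hist1h2ad, Hist1h3d, Hist1h2ab and Hist1h3b, all in the chromosome 13 clusters. They were served by 8 FOXP1 peaks, so the count of separate places is smaller than the count of genes. Only Hist1h2an, Hist1h2bf, Hist1h3d, Hist1h2ab and Hist1h3b were in the sets of both stages. The E18.5 set also holds every gene with an ARID1B promoter peak at E15.5 only, at folds of 2.86 to 4.01. Of the E15.5 set, 6 genes had an ARID1B promoter peak at E18.5, at 3.23 to 3.79. Hist1h1b held an ARID1B body peak at E15.5 (3.75).

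Peaks of FOXP1 and TCF7L2 were lower in the median where no ARID1B promoter peak was called, and the groups differed in class. At E15.5 the median FOXP1 fold was 7.85 (range 4.81 to 12.7) at these 13 genes and 11.1 (6.20 to 28.0) at the 45 genes with all 3 TRs, and the median TCF7L2 folds were 4.41 (3.58 to 4.94) and 6.40 (4.31 to 15.6). At E18.5 the FOXP1 medians were 6.08 and 6.88 and the TCF7L2 medians 5.36 and 6.24. Other genes with both FOXP1 and TCF7L2 but no ARID1B peak at E15.5 had a lower median FOXP1 fold, 4.05, against 11.3 with ARID1B. All 11 bound H4 genes, the class with the highest FOXP1 and TCF7L2 medians at E15.5 (17.5 and 7.44), were among the 45. No H4 gene was among the 13. The 45 also count H4 peaks again at neighbours, such as the 19.7 of Hist1h4h for FOXP1 at Hist1h2af. The part of class in these differences was not tested.

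Of the 13 genes with FOXP1 and TCF7L2 but no ARID1B at E15.5, 8 belonged to divergent pairs, as did 12 of the 45 with all 3 TRs. At E18.5 the counts were 11 of 18 and 8 of 37. All 6 lists were reached by 3 of 26 paired and 29 of 41 other histone genes, against 53.9% of the other coding genes. The paired genes include 6 with no peak in any list, 2 of them testis genes and 4 with under 10% unique promoter windows. Partners often share a peak, so paired genes are not separate places. Divergent pairs among the other coding genes were not counted, so no share stands beside these counts. The pair Hist1h2ae and Hist1h2bg, with starts 176 bp apart, is shown as an example without ARID1B at E15.5. Its FOXP1 folds were 10.1 at E15.5 and 6.88 at E18.5, its TCF7L2 folds 4.31 and 4.60, and its ARID1B fold 3.79 at E18.5. The 175 bases hold 2 CCAAT, an octamer and a TATAAA, in capitals.
Hist1h2bg, chr13:23571221-23571395, plus strand: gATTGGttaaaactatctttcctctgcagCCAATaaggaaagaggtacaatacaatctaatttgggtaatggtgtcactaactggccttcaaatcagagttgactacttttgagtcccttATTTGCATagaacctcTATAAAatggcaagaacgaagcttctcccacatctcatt

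No promoter or body peak of any list was found at 9 histone genes, and these fell into separate sets. The first set is Hist1h1t, Hist1h2aa and Hist1h2ba, the H1, H2A and H2B genes known for expression in the testis, where they serve developing sperm. Their promoters could be mapped. The share of 50-base windows, the read length, found only 1 time in the genome was 100% for Hist1h1t, 93.5% for Hist1h2aa and 99.4% for Hist1h2ba. Hist1h2aa and Hist1h2ba form a divergent pair with starts 306 bp apart. The 200 bases before Hist1h2aa held 4 CCAAT, an octamer and 2 TATAAA, in capitals.
Hist1h2aa, chr13:23934237-23934436, plus strand: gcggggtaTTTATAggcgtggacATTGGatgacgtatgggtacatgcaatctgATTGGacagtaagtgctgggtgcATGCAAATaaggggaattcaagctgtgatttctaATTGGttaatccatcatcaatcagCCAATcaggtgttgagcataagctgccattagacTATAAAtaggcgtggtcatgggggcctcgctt

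The other 6 genes without a peak were Hist1h2bq, Hist1h2ao, Hist1h4m, Hist1h4n, Hist1h2ap and Hist1h2br, neighbours on chromosome 13. Their promoters had between 0% and 2.71% unique windows. Between 97.3% and 100% of the distinct 50-base windows of each promoter occurred at least 2 times within chr13:21804612-21839530. The 250 bases before the starts of Hist1h2bq and Hist1h2br differed at 0 positions. The stretch before Hist1h2bq is shown as the sequence that occurs at both genes, with CCAAT in capitals.
Hist1h2bq, chr13:21810200-21810319, minus strand: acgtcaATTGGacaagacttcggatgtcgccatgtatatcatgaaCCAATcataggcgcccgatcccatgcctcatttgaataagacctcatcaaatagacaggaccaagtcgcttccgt

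The authors kept only reads with a mapping quality of at least 30. Of the 390 other coding genes with under 10% unique windows, 0 had a promoter peak in any list. Whether these 6 promoters were bound could not be measured from the lists. Among the 61 histone genes with at least 10% unique windows, 58 had a peak of FOXP1 and of TCF7L2 at E15.5 (95.1%), 45 of ARID1B (73.8%), and only the 3 testis genes had none. Of the 32 histone genes with 10% to 90% unique windows, 32 had FOXP1 and TCF7L2 peaks at E15.5 (other genes of that range 27.8% and 24.4%). ARID1B peaks were fewer, at 22 of them at E15.5 (26.3%) and, for E18.5, at 16 (25.2%). The fold enrichments of such genes rest on the windows that could be mapped.

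**Figure D4:**
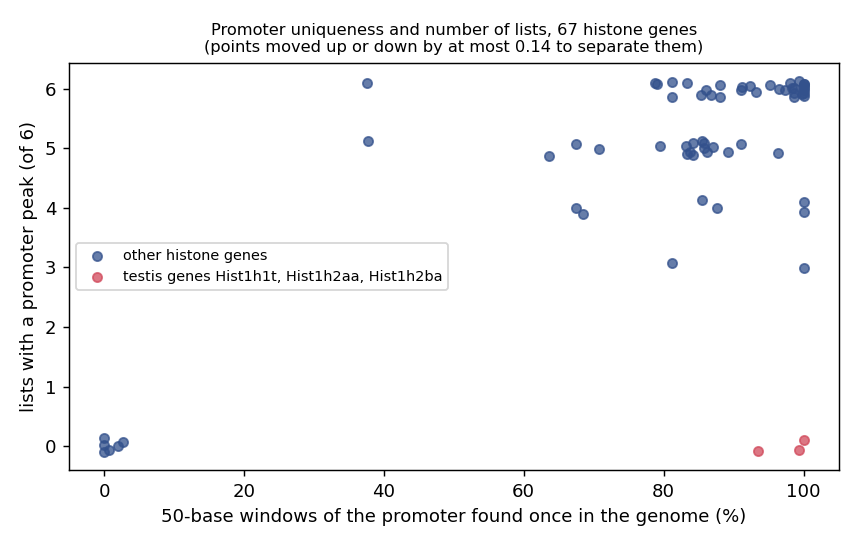
Number of lists with a promoter peak (vertical axis, of 6) against the share of 50-base promoter windows found only 1 time in the genome (horizontal axis, %), 1 point per histone gene. The 6 genes at the lower left have under 10% unique windows, the 3 testis genes at the lower right have 93.5% to 100%, and all other genes have 3 to 6 lists.

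In fold, FOXP1 was the TR that differed most between the stages at these genes, and in the presence of a peak ARID1B was. Between E15.5 and E18.5, FOXP1 peaks were at both stages for 55 genes (other genes 56.5%), at E15.5 only for Hist1h1b, Hist1h3i and Hist1h2ad (other genes 6.78%) and at E18.5 only for none (0.0771%). Its fold was lower at E18.5 at all 55 genes, with a median ratio of 0.602 (quartiles 0.520 and 0.667). At 11718 other genes with a peak at both stages the median ratio was 0.783, and 1105 of them had a higher fold at E18.5. The E18.5 FOXP1 list had the least depth, with a background of 2.81 reads per point against 6.91 at E15.5, corresponding to 26.3 M and 64.6 M reads. Depth and stage cannot be told apart in a single pair of lists, and the part of depth in these ratios was not tested.

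TCF7L2 peaks were at both stages for 58 genes (other genes 58.7%) with a median ratio of 1.04, against 1.06 in the other genes. No histone gene had a TCF7L2 peak at E15.5 only (0.318%) or at E18.5 only (4.16%). ARID1B peaks were at both stages for 32 genes (58.3%), with a median ratio of 1.12 against 1.08. At E15.5 only, 13 genes had ARID1B peaks (2.54%), with folds of 2.86 to 4.01, and at E18.5 only 6 genes had them (1.14%), with folds of 3.23 to 3.79. The medians of these lists at all bound histone genes were 3.93 (E15.5) and 4.77 (E18.5), and the median of the 13 genes was 3.66. The ARID1B lists also differed in depth, with 80.7 M reads and a lowest called fold of 2.33 at E15.5 against 57.3 M and 2.66 at E18.5, and the part of depth in these counts was not tested. Hist1h2ac and Hist1h2bc, most of whose shared region is printed above, were among the 13, with an ARID1B fold of 4.01 at E15.5 and no ARID1B peak at E18.5.

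**Figure D5:**
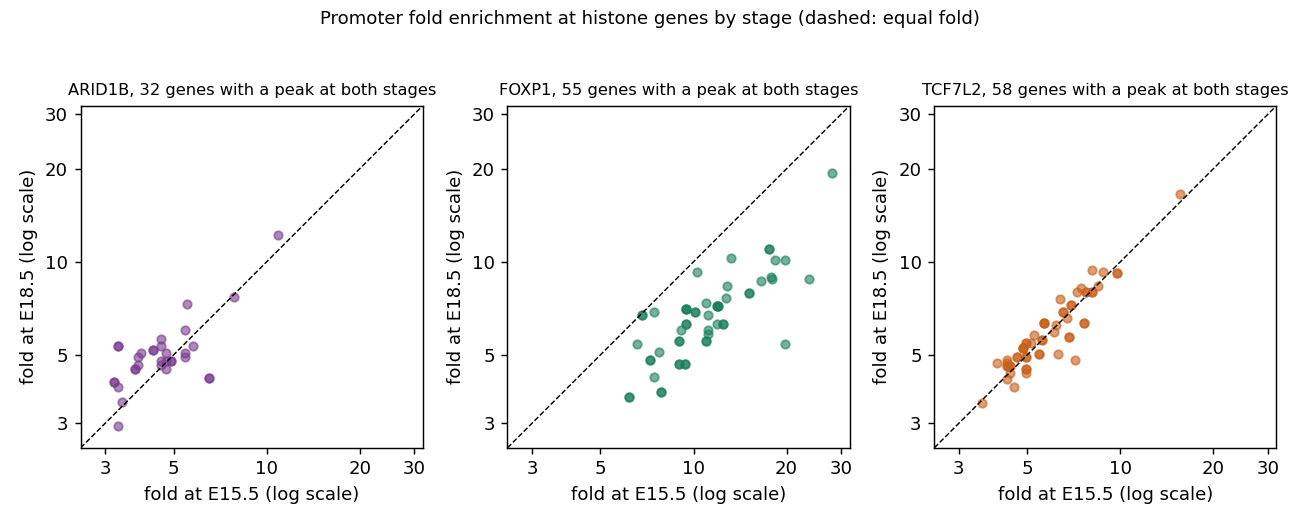
Promoter fold at E15.5 (horizontal axis) against E18.5 (vertical axis), both on log scales, for the histone genes with a peak at both stages (32 for ARID1B, 55 for FOXP1 and 58 for TCF7L2). The dashed line marks equal fold, and all 55 FOXP1 points lie below it.

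Peaks at the histone genes were narrower than elsewhere. The median width of the highest promoter peak was 652 bp for FOXP1 at E15.5, against 1237 bp at the other genes, and between 373 and 552 bp in the other lists, against 800 to 1106 bp. Folds were lower in the median too. At E15.5 the medians were 3.93 against 5.26 (ARID1B), 10.2 against 10.8 (FOXP1) and 5.61 against 6.50 (TCF7L2), and at E18.5 they were 4.77 against 5.75, 6.74 against 8.80 and 5.58 against 6.68. Histone promoters held fewer unique windows, with a median of 87.0% against 98.2% in the other genes. Width and fold were not compared at like uniqueness, and the part of mapping in them was not tested. Of the 32 genes with peaks in all 6 lists, all had their highest fold in the E15.5 FOXP1 list, as did 87.4% of the other genes with 6 lists. The lowest was ARID1B at E15.5 in 21 and at E18.5 in 10 of the 32, against 6503 and 2682 of the 11187 other genes with 6 lists. Fold depends on depth and on the antibody, so an order between lists is not an order of occupancy. Summits of the 3 TRs at the same promoter lay a median of 110 bp apart at E15.5 (45 genes) and 120 bp apart at E18.5 (37 genes). In the other genes the medians were 150 and 160 bp, with the promoters of several TSSs joined where a gene had them. The summits lay within 200 bp of each other at 73.3% and 64.9% of these histone genes, and at 61.6% and 60.2% of the other genes.

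Histone genes outside the clusters and factors for histone mRNA were bound too. Of 13 variant genes, 11 had promoter peaks in all 6 lists (53.9% of all coding genes outside the clusters), and H1foo and H1fnt, expressed in germ cells, had none. H3f3a and H3f3b, which encode the H3.3 variant, were among the 11, with a FOXP1 fold of 17.7 for H3f3b at E15.5, and H2afx, whose product is phosphorylated at DNA breaks, had 19.6. All 11 factor genes had peaks in all 6 lists. Npat, the transcription activator of the clusters, had 13.8 for FOXP1 at E15.5 and 14.7 at E18.5. Slbp, which binds the stem-loop, had 16.3 and 12.2. The highest single value was 45.6 for Cstf2t, a cleavage factor subunit, for FOXP1 at E15.5. The variant genes' median FOXP1 fold at E15.5 was 12.4 and that of the factor genes 12.8, beside 10.2 for the clustered genes and 10.8 for all other coding genes.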

How the data were processed

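Peak lists were taken from 24 libraries of WT mouse cortex, 12 from ChIP and 12 from input. Per the labels and methods, the authors aligned 50-base reads to mm10 with BWA 0.7.15, kept reads with a mapping quality of at least 30, and called peaks on merged replicates with MACS2 2.2.7 against input at a q-value of 0.01, without model or local background. The deposited lists hold fold enrichment (the ratio of ChIP to background at the summit), −log10 p, −log10 q and a score, of which the authors' q-values and score were not used. Peaks were joined to GENCODE vM21 genes (promoter 2000 bp upstream of any TSS, overlap of at least 1 base), and the fold of the highest overlapping peak was used. Unique 50-base windows were counted over GRCm38 with own code (Python 3.11.15), tested on simulated data. Depth was recovered from fold and p-value pairs (26.3 M to 80.7 M reads). Shares have 95% Wilson intervals. Genes named were the 2 highest and lowest by fold per list, those without peaks, class tops, and testis, Hist3 and Hist4 genes. Alternatives changed the region, overlap, thresholds, gene sets and counting of shared peaks. The genes and lists were chosen with earlier results of these data known.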

Additional observations from a re-analysis of the deposited data

How the results depend on the processing

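No paired analysis was possible because each TR and stage has 1 list called on merged replicates. Requiring −log10 p of at least 15 left promoter peaks at 18 (ARID1B E15.5), 16 (ARID1B E18.5) and 29 (FOXP1 E18.5) genes, or 26.9%, 23.9% and 43.3%, against 45.3%, 42.2% and 43.7% of other genes. All 3 TRs were left at 17 (25.4%, others 41.3%) and 11 (16.4%, others 36.9%), and body peaks at 15 (ARID1B at either stage, others 50.9% and 48.1%) and 29 (FOXP1 E18.5, others 45.0%). A fold of at least 4 left, at E15.5, 22 ARID1B promoters (32.8%, below the other genes), 22 with all 3 TRs (others 47.8%) and 18 ARID1B bodies (others 55.2%). Overlap of 100 bases left body peaks at 20 (ARID1B at either stage, others 65.8% and 64.6%), 31 (TCF7L2 E15.5, others 62.3%) and 22 (FOXP1 E18.5, others 60.0%). With the summit inside the region, all 3 TRs were left at 29 promoters at E15.5 (43.3%, others 39.1%), and body peaks at 15, 20 and 23 genes (ARID1B, FOXP1, TCF7L2, E15.5) and 14, 11 and 19 (E18.5). Counting a peak for the nearest TSS only left all 3 TRs at 29 promoters at E15.5 (others 49.6%). These settings can only lower counts, but they lowered many histone shares more than those of other genes, and the cause was not tested. The histone share changed sides against the other genes in 5 of 15 results for −log10 p, 3 of 15 for fold, 3 of 15 for overlap, 4 of 15 for the summit, 3 of 9 for the nearest TSS, and 1 and 2 of 9 for promoters of 1000 bp and of 500 bp on either side. The promoter shares of FOXP1 at E15.5 and of TCF7L2 stayed above the other genes in all of these. The settings of uniqueness, given next, were not in this tally.

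With at least 90% unique windows, shares rose to 79.3% (ARID1B E15.5), 75.9% (ARID1B E18.5), 79.3% and 72.4% (all 3 TRs) in 29 genes (other such genes 66.6% and 65.1% for ARID1B), and to 85.7% and 78.6% of 14 bodies for ARID1B, 9 of them over 1000 bp, for which no other genes of like uniqueness were counted. A comparison within 1000 bp, chosen after seeing the data, left 5 histone genes. Leaving out the 6 genes under 10%, chosen after seeing the data, gave 95.1% for FOXP1 and TCF7L2 at E15.5 and TCF7L2 at E18.5, 90.2% for FOXP1 at E18.5, and 4.92% without a peak. Among other genes of at most 1000 bp, promoter shares (ARID1B, FOXP1, TCF7L2) were 10.5%, 11.6% and 9.33% at E15.5, then 10.2%, 8.98% and 10.2%, 8.98% and 8.29% for all 3 TRs, and 87.6% without a peak, and body shares 10.9%, 10.7% and 10.2%, then 10.5%, 9.50% and 11.2%. Promoters of 1000 bp, or 500 bp on either side of the TSS, and the choice of peak for the fold moved no count, share or median fold by over 1.5 times. The median ARID1B summit at E15.5 moved from -226 to -117 bp from the TSS when the peak nearest to the TSS was taken.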

Other observations

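The ARID1B peaks at histone promoters were the least secure against a stricter threshold. At −log10 p of at least 15, ARID1B peaks remained at 18 of 67 promoters at E15.5, while 45.3% of the other genes kept one. Replicate peak lists, mappability tracks and expression were not analysed here. Low uniqueness reaches past the 6 genes without peaks, since the median share of unique 50-base windows was 87.0% in histone promoters, against 98.2% in those of other genes, and 56.7% in histone gene bodies, against 81.4% in the bodies of other genes of at most 1000 bp.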
